A study of Danio rerio with 16 samples.

Results

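PT-91 and A8535 are benzamide agonists of SREB1 (GPR27), and the comparison described here set the ovary transcriptome after PT-91 directly against that after A8535, across all genes. PT-91 was described as a derivative of A8535. Both share an N-(phenylsulfamoyl)phenyl benzamide core, in which the benzoyl ring of PT-91 carries a methoxy group and a trifluoromethyl group where that of A8535 carries chlorine atoms. The members were the 4 PT-91 libraries and the 4 A8535 libraries, 8 of the 16 libraries in the series, and the 26910 genes that all 3 deposited tables list, of 29629 genes listed in any of them. One pair of compounds was therefore compared, at a matched dose and time.

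Sections of ovary from adult wild-type zebrafish were cultured for 6 h with 5 µM PT-91, 5 µM A8535, or 100 nM of the peptide PNX-20. Control sections received only DMSO, the solvent, and every group had 4 libraries. The fish came from ponds rather than from a named laboratory strain, and ovaries in early growth, with few yolk-bearing follicles, were chosen. The ovaries of a fish were cut into sections that went to wells with 1 treatment each, so libraries of different groups may come from the same fish. Which libraries share a fish is not given in the labels, and p-values measure the spread between these libraries. The cultured tissue is a mixture of follicles and surrounding cells, in which fewer cells of a type and less RNA per cell cannot be told apart.

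The super-conserved receptors expressed in brain (SREBs) are a small family of orphan G protein-coupled receptors found across vertebrates, with expression in the brain and gonads. Phoenixin peptides are cleaved from the protein encoded by smim20 and have been proposed as ligands of another member, SREB3 (GPR173). A8535 and PT-91 were developed as SREB1 agonists by their recruitment of β-arrestin, an adaptor that binds activated receptors. An ovary holds oocytes, which store maternal RNA and secrete the egg coat, with granulosa and theca cells around them that make steroids, and a stroma with vessels and collagen matrix.

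The targeted receptor was at the limit of detection. The SREB1 gene gpr27 had 0 reads in each of the 4 PT-91 libraries, against 1, 0, 0, and 0 reads in A8535 replicates 1 to 4. A count of 0 allows up to 3 reads, which is 0.199 to 0.293 CPM (counts scaled to a common library size) over these libraries and covers counting error only. No test or fold was made for gpr27, and no gene under the symbol gpr85 was among the genes that all 3 tables list. The SREB3 gene gpr173 had 21, 0, 7, and 4 reads with PT-91, against 19, 0, 19, and 7 reads with A8535. The groups overlapped, with the log2 fold change of PT-91 over A8535 at -0.40 and a 95% interval of -2.72 to 1.93. The phoenixin precursor gene smim20 had 51.4, 176, 54.2, and 10.2 CPM with PT-91, against 15.6, 72.8, 31.8, and 9.83 CPM with A8535. Its log2 fold change was 1.17 (95% interval -0.41 to 2.74, unadjusted p = 0.137), and without 1 library at a time it ranged between 0.25 and 1.93. The CPM range given for 3 reads is scaled by total reads only. All other CPM values here and below are scaled by trimmed mean of M-values (TMM) factors. Fold changes are PT-91 over A8535 on the log2 scale.

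The libraries differed within each group. The PT-91 libraries detected 19706, 19656, 22243, and 23474 genes at 1 read or more, against 23126, 19047, 21736, and 23758 genes in the A8535 libraries. Mitochondrially encoded genes took 4.08%, 3.98%, 0.792%, and 1.13% of reads with PT-91, against 0.703%, 3.95%, 2.31%, and 0.570% with A8535. PT-91 replicates 1 and 2 and A8535 replicate 2 therefore stood apart, with the fewest detected genes and the highest mitochondrial shares, and they were unevenly divided between the groups. The mean difference in detected genes was -647 (PT-91 minus A8535; exact permutation test, 2-sided, p = 0.714, where the smallest p of 4 against 4 is 0.0286). Total reads were 10233870 to 13470005 with PT-91 and 10416355 to 15104959 with A8535. All 9 oocyte markers had reads, and their summed level was 6541 to 11220 CPM with PT-91 and 5659 to 9340 CPM with A8535, so the tissue was rich in oocyte RNA in every library.

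The closest libraries joined 1 sample of each agonist. The root mean square difference between libraries over all genes tested was 1.35 to 1.71 log2 units within PT-91 and 1.24 to 1.81 within A8535, and it was 0.734 to 1.83 between a PT-91 and an A8535 library. The closest pair of all was PT-91 replicate 4 with A8535 replicate 4 (0.734), followed by PT-91 replicate 3 with A8535 replicate 3 (0.979). The same pairs stood apart in the share of a gene's reads that fell on its alternate copy. The GRCz11 assembly holds alternate copies of some regions, and 2847 gene symbols had both a chromosome copy and an alternate copy in the tables. Over the 1598 of these with at least 20 reads in every agonist library, the share of reads on the alternate copy differed by a mean of 5.91 percentage points between the replicates 4 and by 6.97 points between the replicates 3. Every other pair differed by at least 15.7 points. Both scales use the same reads, and whether these pairs came from 1 fish was not tested.

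**Figure D1:**
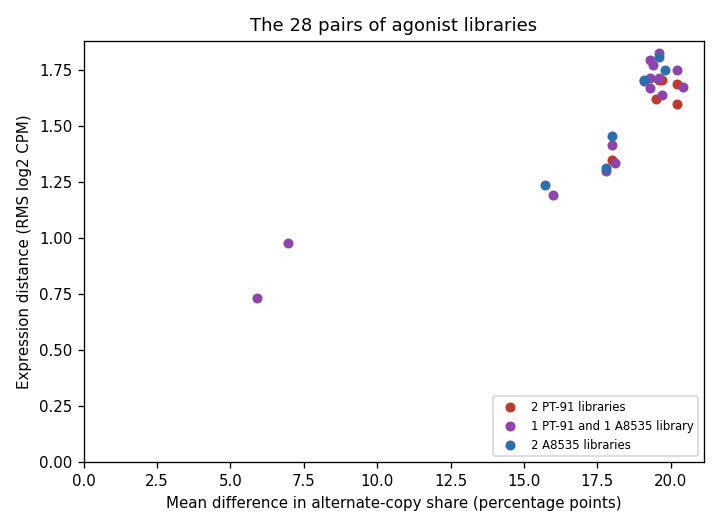
Each point is 1 of the 28 pairs of agonist libraries. The horizontal axis is the mean difference in the share of reads on alternate-scaffold copies, in percentage points over 1598 gene symbols, and the vertical axis is the root mean square difference in log2 CPM. Colours mark pairs of 2 PT-91 libraries, of 1 library from each group, and of 2 A8535 libraries. The 2 points at the lower left, at 5.91 and 6.97 points, are both pairs of a PT-91 and an A8535 library with the same replicate number.

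No gene differed between PT-91 and A8535 after adjustment. Of 19216 genes tested, 435 (2.26%) had an unadjusted p under 0.05, where 961 would be expected with no difference, and 0 (0%) had an adjusted p under 0.05 (edgeR quasi-likelihood test, Benjamini-Hochberg adjustment, smallest adjusted p = 0.967). The expected count holds for independent libraries, and libraries of different groups may share a fish. A count below it therefore does not show that the compounds acted alike. Of the 435 genes, 293 (1.52% of those tested) were higher with PT-91 and 142 (0.739%) were lower, a share of 67.4% higher. Gene lists described below with 0 genes at an unadjusted p under 0.05 are to be read beside the 2.26% over all genes. Over all genes tested, 47.5% had a positive log2 fold change and the median was -0.035. DESeq2 gave 697 genes at an unadjusted p under 0.05 and 2 genes (0.0105% of 19131) at an adjusted p under 0.05. Single libraries moved the count by more than 1.5 times: it was 276 without PT-91 replicate 1, 743 without PT-91 replicate 3, 1323 without PT-91 replicate 4, and 1527 without A8535 replicate 2, and the share higher with PT-91 ranged from 44.6% to 86.05% over the libraries left out. Without the 3 libraries that stood apart, 121 genes had an unadjusted p under 0.05, of which 39.7% were higher with PT-91.

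The precision of the comparison depended on expression level. The 95% interval of the difference lay within a 2-fold change in either direction for 3635 genes (18.9% of those tested), and its median width was 2.48 log2 units. Among genes with an average log2 CPM of 6 and over, 47.9% were placed within 2-fold. This share was 23.8% between 3 and 6, 0.479% between 0 and 3, and 0% under 0. For the other genes, a p that missed the threshold does not show that the compounds acted alike.

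**Figure D2:**
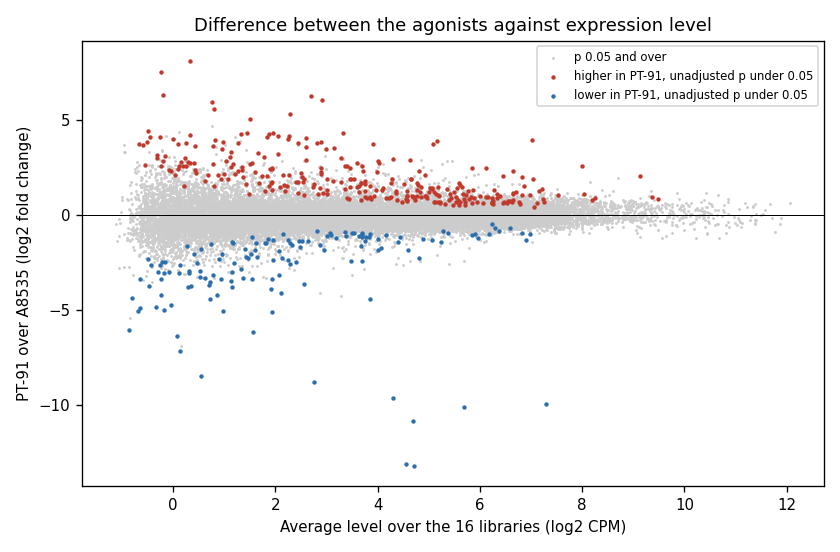
Each point is 1 of the 19216 genes tested. The horizontal axis is the average level over the 16 libraries in log2 CPM, and the vertical axis is the log2 fold change of PT-91 over A8535. Red points (293 genes) are higher and blue points (142 genes) are lower with PT-91 at an unadjusted p under 0.05, and the spread of grey points narrows toward high levels.

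Among genes higher with PT-91, the smallest p belonged to ndufb4, on chromosome 24 (GRCz11, 23971056 to 23974490), which encodes a subunit of respiratory complex I. It had 1.07, 7.98, 1.06, and 35.1 CPM with PT-91, against 0.813, 0.523, 0.776, and 0.424 CPM with A8535. All PT-91 values lay above all A8535 values, although replicates 1 and 3 exceeded the highest A8535 library by little. The log2 fold change was 4.13 (SE 0.98, unadjusted p = 0.000638, edgeR adjusted p = 0.967, DESeq2 adjusted p = 0.0301), and it was 2.36 without PT-91 replicate 4, the lowest value over the libraries left out. Such separation of the groups was seen in 94 genes higher with PT-91 (0.489%) and 141 lower (0.734%). The other DESeq2 call was LOC103909956, on an alternate scaffold, with 16.7, 32.9, 1.21, and 0.908 CPM with PT-91, against 1.36, 0.224, 0.299, and 0.932 CPM with A8535. Its high values came from PT-91 replicates 1 and 2, 2 of the libraries that stood apart, and its log2 fold change of 4.20 was 0.33 without those 3 libraries.

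The alternate copy of rpn2, which encodes ribophorin II of the oligosaccharyltransferase that attaches N-glycans, had 14.3, 23.8, 2.79, and 14.6 CPM with PT-91, against 0.723, 1.05, 1.67, and 0.508 CPM with A8535. The groups did not overlap (log2 fold change 3.79, SE 1.13, unadjusted p = 0.00407). The copy of rpn2 on chromosome 11 had most of the reads, with 159 ± 46.2 CPM with PT-91 and 187 ± 32.3 CPM with A8535 (SD, 4 libraries each), and with the copies summed the log2 fold change was -0.12. An alternate copy of ogfrl2, an opioid growth factor receptor-like gene, had 4.50, 6.21, 0.979, and 0.578 CPM with PT-91, against 0.362, 0, 0.299, and 0.0847 CPM with A8535, again without overlap. Its other copies had log2 fold changes of 0.70 and 0.67, and with the copies of ogfrl2 summed it was 0.74. Copies on alternate scaffolds made up 15.8% of the genes tested and 24.6% of those at an unadjusted p under 0.05.

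The other genes that led the higher side rested mostly on 1 or 2 PT-91 libraries. The small GTPase gene arl2 had 47.3, 3.77, 1.06, and 0.908 CPM with PT-91, against 1.45, 0.747, 0.776, and 0.847 CPM with A8535, and its log2 fold change of 3.79 was 0.99 without PT-91 replicate 1. An alternate copy of faub, which encodes a ubiquitin-like protein fused to a ribosomal protein, had 1.23, 10.9, 1.13, and 62.8 CPM with PT-91, against 0.813, 1.87, 0.597, and 1.27 CPM with A8535, and its log2 fold change of 4.05 was 1.92 without PT-91 replicate 4 and 1.21 with the copies of faub summed. An alternate copy of ptmaa, a prothymosin gene, had 48.8, 44.2, 0.753, and 1.403 CPM with PT-91, against 1.90, 3.58, 1.37, and 1.53 CPM with A8535. In ptmaa the 2 high PT-91 libraries were again replicates 1 and 2, and the log2 fold change of 3.50 turned to -0.55 without the 3 libraries that stood apart. The other genes named on this side were si:ch211-153a8.4 (2.33), si:dkey-110c1.10 (5.94), and the zinc finger gene znf1160 (2.42), each highest in PT-91 replicate 2. Without that library they stood at 1.64 for si:ch211-153a8.4, 3.03 for si:dkey-110c1.10, and 1.62 for znf1160, and without the 3 libraries that stood apart at 0.77 for si:ch211-153a8.4, 1.36 for si:dkey-110c1.10, and 0.72 for znf1160.

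One gene on the higher side differed from this pattern. The gene zgc:123096, on chromosome 9 (24121106 to 24123781), had 1.64, 35.8, 14.9, and 38.5 CPM with PT-91, against 1.18, 5.00, 1.25, and 4.91 CPM with A8535, and 22.8, 28.5, 16.7, and 35.2 CPM in the control. PT-91 replicates 2 to 4 lay in or near the range of the control, and all A8535 libraries lay below it. The log2 fold change was 2.88 (SE 0.83, unadjusted p = 0.003), with 2.47 to 3.27 over the libraries left out and 3.46 without the 3 libraries that stood apart. Against the control, it was -0.18 for PT-91 and -3.06 for A8535 in the same fit, in which both share the control libraries.

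On the lower side, the smallest p among genes with an average log2 CPM of 0 or more belonged to an alternate copy of bcl7bb, which belongs to a family of chromatin remodeling subunits. It had 4.91, 0.998, 2.03, and 3.88 CPM with PT-91, against 9.22, 30.2, 9.55, and 13.1 CPM with A8535. The groups did not overlap (log2 fold change -2.38, SE 0.57, unadjusted p = 0.000645), and the value stayed between -2.74 and -1.84 over the libraries left out. The gene zgc:92107, on chromosome 11 (24994456 to 25041804), had 7.04, 2.55, 7.31, and 8.75 CPM with PT-91, against 9.76, 21.7, 23.6, and 24.0 CPM with A8535, also without overlap (-1.62, SE 0.49). Alternate copies of wdr32 (-1.71, SE 0.53) and of zeb2a, a zinc finger repressor gene (-3.03, SE 0.93), were lower in every PT-91 library than in any A8535 library. No other copy of bcl7bb, wdr32, or ptmaa was among the genes compared under its symbol, so summed copies could not check them. For zeb2a the values were 0.328, 0.111, 0.226, and 0.413 CPM with PT-91, against 2.53, 1.79, 4.00, and 0.847 CPM with A8535. Other genes on this side were high in only some A8535 libraries. An alternate copy of stra6, which encodes a retinol uptake receptor, had 10.6 and 8.98 CPM in A8535 replicates 2 and 4 and under 1 CPM in every other agonist library, whereas the chromosome 25 copy had a log2 fold change of -0.32 and the copies summed -0.61. The histone acetyltransferase gene kat8 had 9.91 and 24.0 CPM in A8535 replicates 3 and 4 and 0.452 to 1.22 CPM in the other agonist libraries, and its log2 fold change of -3.37 was -2.16 without A8535 replicate 4. The gene si:dkey-90m5.4 had 0, 0, 0.0753, and 0 CPM with PT-91, against 0.813, 3.14, 0, and 6.35 CPM with A8535.

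**Figure D3:**
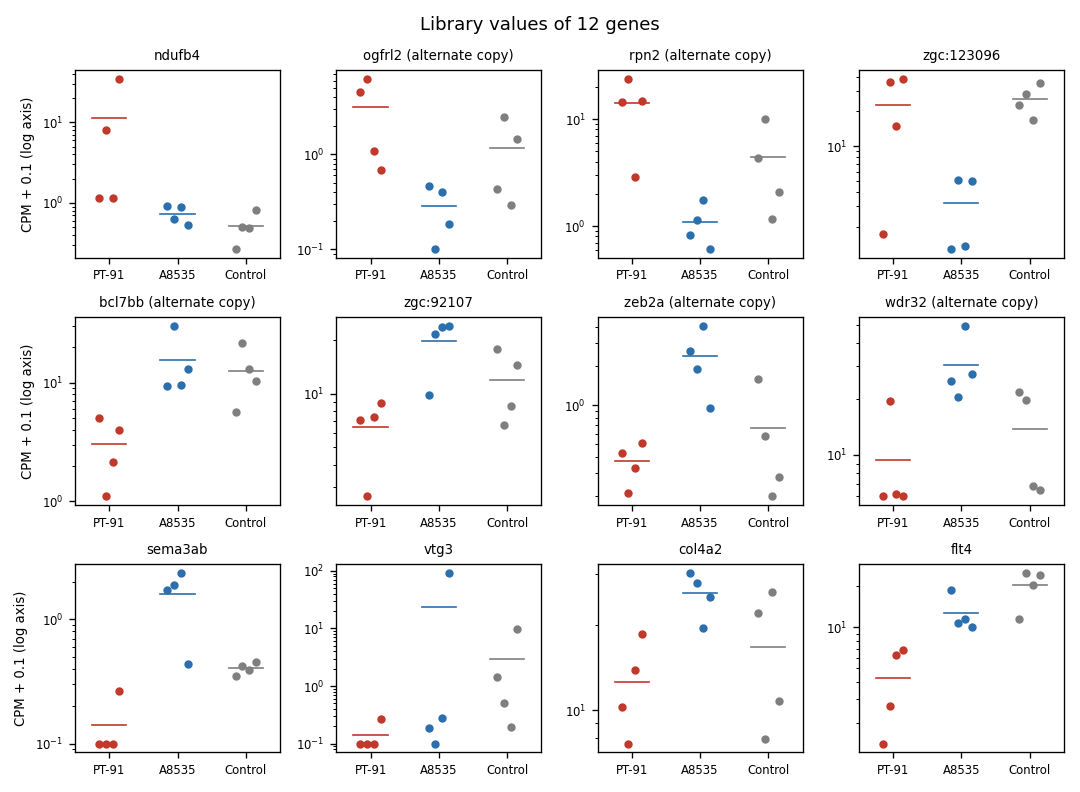
Library values of 12 genes with PT-91 (red), A8535 (blue), and in the control (grey), as CPM plus 0.1 on a log axis. Points are libraries and the horizontal lines are group means. PT-91 and A8535 points do not overlap in 10 of the 12 panels, which were picked from the genes named in the text. Over all genes tested, the groups do not overlap in 1.22%. The sema3ab points (0 to 0.165 CPM with PT-91, 0.339 to 2.27 CPM with A8535) are of 1 copy at low levels. The A8535 mean of vtg3 rests on 1 library at 92.0 CPM.

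The vitellogenin genes, which encode yolk precursors made chiefly in the liver, rested on 1 library. In PT-91 libraries vtg3 had 0, 0, 0, and 0.165 CPM, against 0.0904, 0, 0.179, and 92.0 CPM with A8535. The alternate copy of vtg1 reached 793 CPM, and vtg5 reached 385 CPM, in the same A8535 replicate 4, with under 1 CPM in every other agonist library. Their log2 fold changes were -8.77 for vtg3, -10.11 for vtg1, and -10.83 for vtg5, and without A8535 replicate 4 they were -0.96, -0.92, and -1.51. All 10 liver markers had reads, and their sum was 2.56 to 36.0 CPM with PT-91 and 5.96, 9.48, 6.63, and 4132 CPM with A8535. The liver sum was 38.8, 11.1, 3.02, and 253 CPM in the control and 4.55, 13.2, 54.8, and 5.73 CPM with PNX-20. The part of such reads in these results was not tested.

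The 4 pancreatic enzyme genes at an unadjusted p under 0.05 had their highest agonist values in A8535 replicates 1 and 3. These 4 of 10 tested (40%) were lower with PT-91, beside 0.739% over all genes, and 0 were higher. Of the 10, 9 had a negative log2 fold change and 1 a positive one, with a median of -3.22. In 0 of the 10 were all PT-91 values below all A8535 values, beside 0.734% over all genes. The bile salt-stimulated lipase gene cel.2 had 0 reads in each PT-91 library, against 4.97, 0, 9.26, and 0.424 CPM with A8535, and the carboxypeptidase gene cpa1 also had 0 reads in each PT-91 library. The trypsin gene prss59.2 had 0.491, 0, 0, and 0.990 CPM with PT-91, against 9.58, 1.87, 14.2, and 0.508 CPM with A8535. The high values were those of A8535 replicates 1 and 3, in which the 9 listed exocrine pancreas markers summed to 56.7 and 70.9 CPM, against 4.37 to 6.33 CPM with PT-91 and 8.88 and 5.76 CPM in A8535 replicates 2 and 4. The same sum was 7.18, 2.88, 1.85, and 68.9 CPM in the control and 6.27, 5.24, 7.78, and 156 CPM with PNX-20, so high single libraries were not particular to A8535. The part of these reads in other results was not tested.

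Genes of protein synthesis and respiration mostly had small positive log2 fold changes. Of 84 cytosolic ribosomal protein genes, 79 had a positive log2 fold change (median 0.46), and at an unadjusted p under 0.05 the list held 3 higher genes and 0 lower. Of 74 mitochondrial ribosomal protein genes, 68 were positive (median 0.63), with 3 higher and 1 lower, and of 85 nuclear respiratory chain genes, 78 were positive (median 0.45), with 3 higher and 0 lower. The higher genes at the threshold made up 3.57%, 4.05%, and 3.53% of these lists, beside 1.52% over all genes, and the 1 lower gene made up 1.35% of its list, beside 0.739%. The libraries overlapped in each list. The mean centred log2 CPM of the cytosolic ribosomal genes was 1.04, 1.00, 0.23, and -0.72 with PT-91, against -0.60, 0.69, 0.34, and -0.80 with A8535. PT-91 replicates 1 and 2 and A8535 replicate 2 were the highest, the same 3 libraries whose mitochondrial shares were highest. Without these 3 libraries the medians were 0.09 for cytosolic ribosomal, 0.23 for mitochondrial ribosomal, and 0.19 for respiratory genes. Over single libraries left out, the cytosolic median was 0.16 without PT-91 replicate 1 to 0.87 without A8535 replicate 2, the respiratory median 0.25 to 0.88 without the same libraries, and the mitochondrial ribosomal median 0.33 without PT-91 replicate 2 to 1.09 without A8535 replicate 2.

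Within these lists, the genes at the threshold varied widely between libraries. The ribosomal protein gene rps27a, which encodes a ubiquitin fusion, had 43.2, 817, 10.6, and 22.7 CPM with PT-91, against 9.04, 35.1, 8.96, and 3.90 CPM with A8535, and its log2 fold change of 3.97 was 0.84 without PT-91 replicate 2. For rps15, the log2 fold change of 2.78 turned to -0.16 without PT-91 replicate 1. The complex II subunit gene sdhc had 155, 187, 2.56, and 5.94 CPM with PT-91, against 1.63, 9.41, 9.02, and 3.47 CPM with A8535, and 3.89 on the log2 scale turned to -0.14 without the 3 libraries. The mitochondrial ribosomal protein gene mrpl35 had 75.2, 75.6, 29.5, and 21.4 CPM with PT-91, against 18.3, 30.3, 25.1, and 18.9 CPM with A8535 (1.12, SE 0.44). Its high values were again those of PT-91 replicates 1 and 2, and 1.12 was 0.31 without the 3 libraries. In the other direction, 1 copy of mrpl28 had 31.3 CPM in A8535 replicate 4 and 0.0825 to 1.25 CPM in the other agonist libraries. Its log2 fold change of -3.62 was -0.47 without that replicate, and with the copies of mrpl28 summed it was 0.18.

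The 13 mitochondrially encoded protein genes had a median log2 fold change of 0.66, and 0 of them had an unadjusted p under 0.05. The cytochrome c oxidase gene COX1 had 11350, 7026, 3238, and 4313 CPM with PT-91, against 2542, 5710, 5856, and 2283 CPM with A8535. Its interval was -0.50 to 1.82. The median was 0.25 without PT-91 replicate 1 and 1.503 without A8535 replicate 2, and it turned to -0.14 without the 3 libraries that stood apart. Among 43 proteasome subunit genes, 36 were positive (median 0.36), and 0 passed the threshold. The proteasome median was 0.17 without PT-91 replicate 1 and 0.15 without the 3 libraries.

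**Figure D4:**
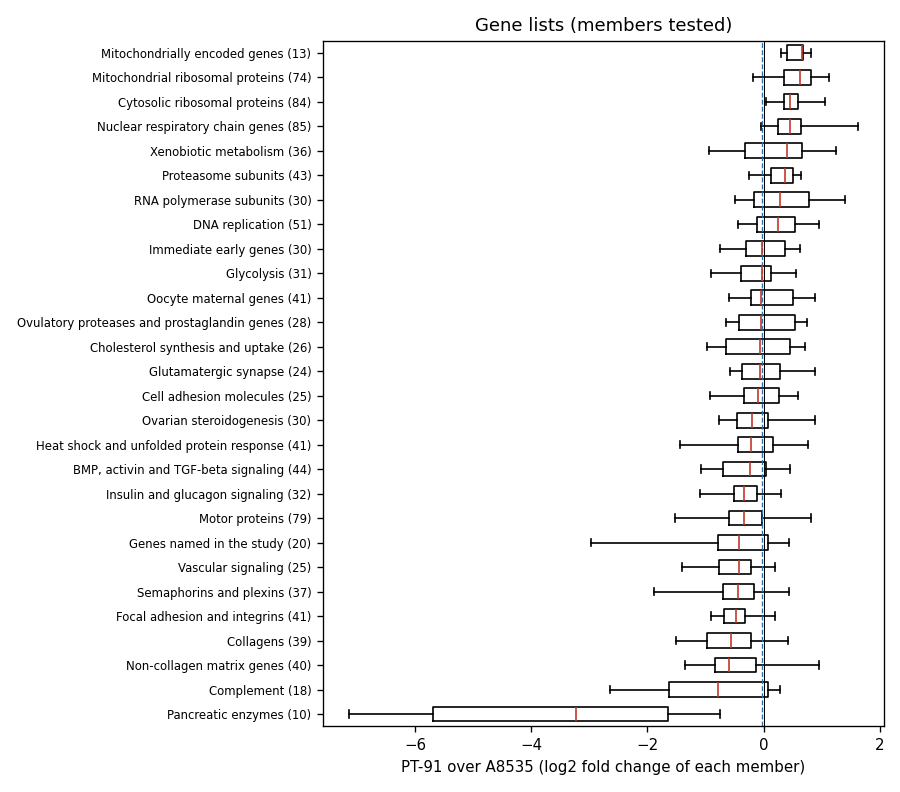
Log2 fold changes of PT-91 over A8535 for the members of 28 gene lists, with the number tested in parentheses. Boxes span the quartiles, red lines are medians, whiskers reach the 5 and 95 percentiles, and the dashed line is the median of all 19216 genes (-0.035). Boxes of ribosomal and respiratory genes lie to the right of the dashed line. Those of collagen, other matrix, focal adhesion, vascular, and pancreatic lists lie to the left. The boxes of complement genes and of cell adhesion molecules span the dashed line.

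Collagen, other matrix, focal adhesion, and vascular genes mostly had negative log2 fold changes. Of 39 collagen genes, 33 had a negative log2 fold change (median -0.56), with 1 higher (2.56%) and 3 lower (7.69%) at an unadjusted p under 0.05, beside 1.52% and 0.739% over all genes. The basement membrane collagen gene col4a2 had 10.2, 7.54, 13.8, and 18.5 CPM with PT-91, against 30.3, 28.0, 19.4, and 24.9 CPM with A8535. The groups did not overlap (log2 fold change -1.04, SE 0.44, unadjusted p = 0.0313), and it was -0.60 without the 3 libraries that stood apart. The endostatin precursor gene col18a1a had 26.0, 29.3, 32.6, and 50.8 CPM with PT-91, against 112, 52.8, 65.9, and 31.7 CPM with A8535, overlapping through A8535 replicate 4 (-0.92, SE 0.35, and -0.58 without A8535 replicate 1). The collagen gene col5a3a was also lower (-2.47, SE 0.95), and an alternate copy of col11a1a was the 1 higher member (2.64, SE 1.16) at a mean level under 1 CPM in both groups, with 1.36 for the copies of col11a1a summed.

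Of 40 other matrix genes, 30 were negative (median -0.59), with 0 higher and 2 lower at the threshold (5.0%, beside 0.739% lower over all genes). The fibronectin gene fn1b had 56.0, 58.9, 83.8, and 159 CPM with PT-91, against 273, 70.6, 378, and 147 CPM with A8535 (-1.28, SE 0.54). The other lower member was nid1b, which is annotated as a transcribed pseudogene and had a mean under 1 CPM in both groups. Its log2 fold change was -2.32 (SE 1.06), and -1.36 without the 3 libraries that stood apart. Focal adhesion and integrin genes were negative in 34 of 41 (median -0.47) with 0 at the threshold. A separate list of 25 cell adhesion molecules was divided, with 11 positive and 14 negative (median -0.10, and 0.02 without PT-91 replicate 3), and 0 at the threshold. The talin gene tln1 stood at -0.89 (95% interval -1.81 to 0.03), and the filamin gene flna at -1.34 (-2.83 to 0.16). Of 25 vascular genes, 21 were negative (median -0.43), again with 0 at the threshold. The lymphatic vessel receptor gene flt4 had 1.31, 2.55, 6.18, and 6.68 CPM with PT-91, against 18.6, 10.6, 11.5, and 10.0 CPM with A8535, with no overlap (-1.59, unadjusted p = 0.0549), and 11.4 to 24.9 CPM in the control.

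The libraries overlapped in each of the collagen, other matrix, focal adhesion, and vascular lists. The mean centred log2 CPM of the collagens was -0.45, -0.65, 0.08, and 0.35 with PT-91, against 0.58, -0.25, 0.68, and 0.33 with A8535. PT-91 replicates 1 and 2 and A8535 replicate 2 were the 3 lowest agonist libraries in all 4 lists. Without these 3 libraries, which stood apart, the medians were -0.60 for collagens, -0.48 for other matrix genes, -0.33 for focal adhesion, and -0.34 for vascular genes. Without A8535 replicate 3, the collagen median was -0.20, the focal adhesion median -0.25, and the vascular median -0.15. Without PT-91 replicate 4 the medians were more negative, at -0.90 for collagens, -0.92 for other matrix genes, and -0.78 for vascular genes. A8535 replicate 3 had the highest sum of stromal fibroblast markers, at 196 CPM. The PT-91 libraries had 40.4 to 107 CPM, and the other A8535 libraries had 44.6 to 86.6 CPM. In A8535 replicate 3 the sum of macrophage and leukocyte markers was 194 CPM, against 73.8 to 172.5 CPM with PT-91. The part of these cell types in the matrix results was not tested.

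Semaphorins, which guide axons and vessels, included the smallest p of all genes tested. The gene sema3ab, on chromosome 18 (9383162 to 9439922), had 0, 0, 0, and 0.165 CPM with PT-91, against 1.63, 1.79, 2.27, and 0.339 CPM with A8535, and 0.248 to 0.357 CPM in the control. All PT-91 values lay below all A8535 values, at low levels in both groups (log2 fold change -4.85, SE 1.11, unadjusted p = 0.000458, edgeR adjusted p = 0.967). With its 2 copies summed, sema3ab was at -1.12 and no longer under an unadjusted p of 0.05. Without PT-91 replicate 4, which leaves PT-91 libraries at 0 reads only, the fitted value was -7.26, which is no bound. The related gene sema3d, on the same chromosome, had 0, 0.554, 0.301, and 0.165 CPM with PT-91, against 6.05, 0.747, 0.478, and 0.847 CPM with A8535 (-2.97, SE 1.33, and -1.46 without A8535 replicate 1). Of 37 semaphorin and plexin genes tested, 32 were negative (median -0.44). At the threshold, 0 were higher and 2 lower (5.41%, beside 0.739% lower over all genes). The median was -0.75 without PT-91 replicate 4 and -0.32 without A8535 replicate 3. The libraries overlapped in this list. PT-91 replicates 1 and 2 and A8535 replicate 2, which stood apart, were the lowest agonist libraries in it. Both sema3ab and sema3d are among 20 genes that the study names from these samples, so their direction is not independent evidence. Those 20 had a median of -0.42.

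No gene of steroid synthesis passed the threshold. Of 30 ovarian steroidogenesis genes, 0 had an unadjusted p under 0.05, beside 2.26% over all genes, so this count says little for so short a list. In 1 of the 30, all PT-91 values lay above all A8535 values, beside 0.489% over all genes. Of the 30, 20 were negative, and the median was -0.19. That median turned to 0.01 without PT-91 replicate 1 and to 0.08 without the 3 libraries that stood apart. The side-chain cleavage gene cyp11a1, for the first step from cholesterol, had 166.5, 103, 335, and 68.2 CPM with PT-91, against 123.3, 237, 222, and 74.5 CPM with A8535. The groups overlapped throughout (0.04, 95% interval -1.03 to 1.099), for this 1 copy of the gene. With the copies of cyp11a1 summed, the PT-91 libraries had 278.5, 207.8, 513.6, and 203.3 CPM. The A8535 libraries had 205.5, 396.5, 336.9, and 250.7 CPM on that sum, again with overlap. Values of cyp19a1a and hsd3b1 below are also of 1 copy. For cyp17a1, which leads to androgens, the log2 fold change was -0.04 (-0.99 to 0.90), within 2-fold, and for the aromatase gene cyp19a1a it was -0.09 (-1.16 to 0.97). Wider intervals were found for hsd3b1 (-0.76, -2.04 to 0.51), the luteinizing hormone receptor gene lhcgr (-0.53, -1.76 to 0.69), and the steroidogenic factor gene nr5a1a (-0.92, -2.14 to 0.31). The values of nr5a1a were 6.47, 10.4, 18.0, and 26.3 CPM with PT-91, against 29.0, 22.0, 53.7, and 10.8 CPM with A8535, and these overlapped.

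Several abundant oocyte genes were placed within a 2-fold change. The egg coat gene zp3a.1 had 1522, 2804, 2361, and 1847 CPM with PT-91, against 2542, 2492, 1536, and 2284 CPM with A8535 (-0.05, -0.64 to 0.54). The gene buc, which organizes the Balbiani body of the oocyte, had 1256, 1048, 1975, and 1596 CPM with PT-91, against 1712, 1013, 1536, and 1609 CPM with A8535 (0.00, -0.55 to 0.55). Of 41 oocyte maternal genes tested, 22 (53.7%) had an interval within 2-fold, beside 18.9% of all genes and 47.9% of those at an average log2 CPM of 6 and over. At an unadjusted p under 0.05 there were 0, and the median was -0.04 (-0.18 to 0.14 over libraries left out). The members with the smallest p were npm2a (0.93, -0.04 to 1.91), zar1l (1.56, -0.09 to 3.20), and zp2.1 (-0.59, -1.24 to 0.05). Without PT-91 replicate 2, npm2a stood at 0.21 and zar1l at 0.54. Without A8535 replicate 2, npm2a stood at 1.37 and passed the unadjusted threshold, and with its copies summed zar1l stood at 0.12.

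**Figure D5:**
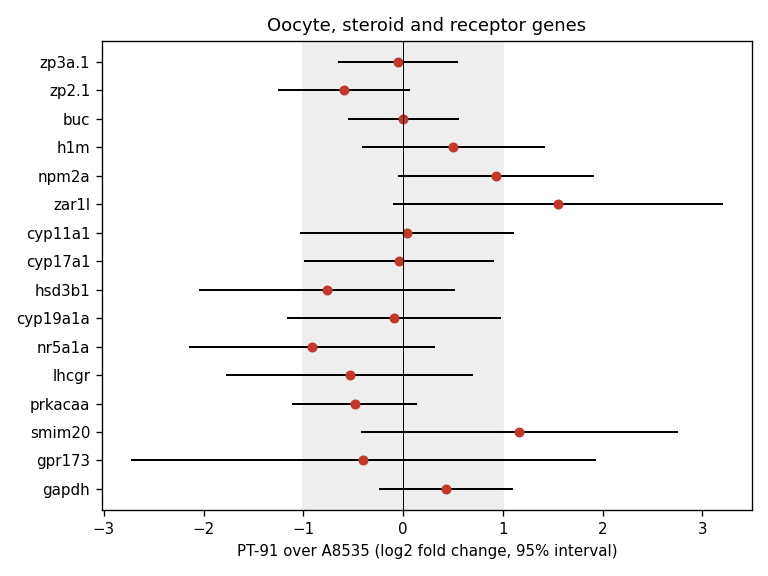
Log2 fold changes of PT-91 over A8535 (points) with 95% intervals (lines) for 16 oocyte, steroid, receptor, and reference genes. The grey band is a 2-fold change either way. Intervals of zp3a.1 (-0.64 to 0.54) and buc (-0.55 to 0.55) lie within the band, and those of gpr173 and zar1l reach beyond it.

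Immediate early genes, which respond first to signals, gave no call. Of 30 immediate early genes, 15 were positive and 15 negative, with a median of -0.02, which was -0.22 to 0.09 over libraries left out. At an unadjusted p under 0.05 there were 0, beside 2.26% over all genes, which says little for so short a list. Of 41 heat shock and unfolded protein response genes, 30 were negative (median -0.22) with 0 at the threshold, and among 36 xenobiotic metabolism genes the median was 0.40 with 0 at the threshold. The xenobiotic median was 0.10 without PT-91 replicate 2 and 0.08 without the 3 libraries that stood apart. The efflux transporter gene abcg2a stood at -0.94 (-2.01 to 0.13). Among 51 DNA replication genes, 2 were higher (3.92%, beside 1.52% over all genes) and 0 lower, namely the clamp loader gene rfc3 and the origin recognition gene orc5. The values of orc5 were 59.21, 64.5, 44.1, and 42.9 CPM with PT-91, against 30.5, 43.3, 35.1, and 36.5 CPM with A8535 (0.54, SE 0.24), with an overlap between PT-91 replicate 4 and A8535 replicate 2.

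Among genes the study examined by quantitative PCR, caprin1a, which encodes an mRNA-binding protein, had 5.08, 24.95, 16.0, and 33.5 CPM with PT-91, against 29.5, 13.1, 16.4, and 19.4 CPM with A8535. The agonists did not differ in caprin1a beyond their spread (0.02, -1.14 to 1.18), and against the shared control libraries the values were 1.92 for PT-91 and 1.90 for A8535. The metalloreductase gene steap4 stood at -0.67 (-1.96 to 0.62), the thymosin gene tmsb4x at 0.35 (-1.24 to 1.94), the ribosomal gene rpl36a at -1.32 (-3.09 to 0.44), wu:fj16a03 at 0.44 (-1.41 to 2.3003), and the signal peptidase gene sec11a at -0.43 (-1.98 to 1.12). This sec11a value is of 1 copy. With the copies of sec11a summed, the log2 fold change was 1.14, in the other direction and under an unadjusted p of 0.05. In the fit without summed copies, 1320 genes had an unadjusted p under 0.05 for PT-91 against the control and 508 for A8535 against the control. A gene counted in only 1 of these is not thereby different between the agonists.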

How the data were processed

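Raw read counts per gene were deposited by the authors, who used fastp for read cleaning, HISAT2 2.0.5 for alignment (GRCz11), and featureCounts 1.5.0-p3 for counting. The authors' FPKM values, size-factor normalized values, group means, fold changes, and p-values were not used. The 3 tables (28228, 28089, and 28009 genes) were joined on the gene ID, and control counts differed between tables in 0 genes. All 16 libraries were fitted in edgeR 4.0.16 (R 4.3.3) with filterByExpr, TMM scaling, and a robust quasi-likelihood model of the 4 groups. The fit was tried on simulated independent libraries, which cannot check the effect of libraries that share a fish. Standard errors are the log2 fold change over the root of F. DESeq2 1.42.0, limma 3.58.1, other scalings and filters, summed copies, a replicate block, and each agonist library left out were alternatives. Named genes were the 10 higher and 10 lower with the smallest p at an average log2 CPM of 0 or more, DESeq2 calls, up to 4 members of each of 29 lists, the SREB genes, genes the study names, and abundant markers of 11 cell types. Members and lists were chosen with earlier results of these data known. Each list symbol was represented by 1 copy, a chromosome copy where available, so values of list members leave out any other copies. Gene symbols are those of the files, and coordinates are on GRCz11. Library totals bound the precision of low counts.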

Additional observations from a re-analysis of the deposited data

Results flagged for a closer look

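Values of 260 groups of 4 libraries (PT-91 and A8535 separately, for each gene, marker sum, and gene list described) were examined for 1 library far from the other 3, on the log2 scale with 0.5 added to CPM. Of these groups, 27 stood apart. Chance gives about 1 in 20 for independent groups, but these groups share libraries and genes, and many genes were chosen by a small p. A group with 3 libraries at 0 and 1 above 0 always stands apart under this rule. The 27 therefore cannot be read as an excess over chance. No cause of any of them was tested.

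In A8535 replicate 4, the liver marker sum was 4132 CPM, the alternate copy of vtg1 was 793.5 CPM, vtg5 was 385.5 CPM, vtg3 was 92.0 CPM, and mrpl28 was 31.26 CPM. In A8535 replicate 1, zar1l was low at 4.518 CPM and zgc:92107 at 9.759 CPM, and rfc3 (8.133 CPM) and sema3d (6.054 CPM) were high. In A8535 replicate 2, npm2a was high at 183.0 CPM. In A8535 replicate 3, prkacaa, a protein kinase A subunit gene, was low at 68.19 CPM, rps12 was low at 8.778 CPM, and the ovulatory protease and prostaglandin list was high at 0.828 (mean centred log2 CPM).

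In PT-91 replicate 1, the macrophage and leukocyte marker sum was high at 172.5 CPM, steap4 was low at 33.0 CPM, and the glutamatergic synapse list was low at -0.8302 (mean centred log2 CPM). In PT-91 replicate 2, sec11a was low at 1.774 CPM, hsd3b1 was low at 6.32 CPM, and the alternate copy of wdr32 was high at 19.29 CPM. In PT-91 replicate 3, cyp19a1a was low at 6.177 CPM, the granulosa marker sum was low at 58.45 CPM, and the exocrine pancreas marker sum was high at 6.328 CPM. These hsd3b1 and cyp19a1a values are of 1 copy, and with copies summed the same libraries had 9.646 CPM for hsd3b1 and 8.587 CPM for cyp19a1a. The remaining flags are single low counts beside 3 libraries at 0: si:dkey-90m5.4 at 0.07533 CPM in PT-91 replicate 3, and vtg3, vtg5, and sema3ab at 0.165 CPM and the elastase gene ela3l at 0.2476 CPM in PT-91 replicate 4.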

How the results depend on the processing

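The count of genes at an unadjusted p under 0.05 was 896 with no filter on low counts, 697 with DESeq2, 674 with limma-voom, and 121 without the 3 agonist libraries with the fewest detected genes (chosen after seeing the data), and 276 to 1527 over the 8 single libraries left out. DESeq2 gave 2 genes at an adjusted p under 0.05, and every other alternative gave 0. The share higher with PT-91 was 54.1% with library size scaling, which moved the median of all genes to -0.11, 52.1% with no filter, 39.7% without the 3 libraries, 49.7% with the mitochondrial share as a covariate (also chosen after seeing the data), and 44.6% to 86.05% over libraries left out. With the replicate number as a block, 436 genes had an unadjusted p under 0.05, 56.9% of them higher, and 0 passed adjustment, but only 264 of the original 435 were among the genes still under 0.05. Deviations of same-numbered libraries correlated at -0.03, 0.26, 0.46, and 0.58, so the numbers were not taken as a pairing. PT-91 replicates 1 and 2 both correlated best with A8535 replicate 2 (0.255 and 0.261). In alternate-copy share, PT-91 replicate 1 and A8535 replicate 2 differed by 20.4 points, the most of any pair of agonist libraries. Genes with an interval within 2-fold numbered 2526 to 4236 over libraries left out. The difference in detected genes was -1604 to -33.2 over libraries left out, -292 at 5 reads or more, and -622 at equal depth.

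Summing copies reversed rpn2 (-0.12), mrpl28 (0.18), and sec11a (1.14). Without PT-91 replicate 1, rps15 reversed (-0.16, against 4.16 without A8535 replicate 2, the highest value), and without the 3 libraries, arl2 (-0.031), ptmaa (-0.55), rps12 (-0.12), sdhc (-0.14), and atp5ib (-0.038) did. The cause of these changes was not tested. Of 1861 values of 90 genes, 1574 kept their call or moved by less than 1 SD. Of 608 list medians, 597 moved by less than 1 SD of the list between libraries of a group. That SD can exceed the median, as for cytosolic ribosomal genes (0.78 beside 0.46). A median could therefore change sign and still be counted, as the mitochondrially encoded median did (0.66 to -0.14 without the 3 libraries). The 597 is no measure of stability. Depth limits genes of low expression, as 0% of those under an average log2 CPM of 0 had an interval within 2-fold.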

Other observations

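The smooth muscle myosin gene myh11a had 4.91, 3.55, 9.49, and 16.8 CPM with PT-91, against 35.0, 16.3, 13.1, and 9.66 CPM with A8535, which overlapped (log2 fold change -1.09, SE 0.51, and -0.63 without A8535 replicate 1). In the same list of 79 motor protein genes, 60 were negative (median -0.35), while the dynein light chain gene dynll2a stood at 1.55 (SE 0.59) and at 0.03 without the 3 libraries that stood apart. Of 32 insulin and glucagon signaling genes, 26 were negative (median -0.34, and -0.16 without PT-91 replicate 1) with 0 at an unadjusted p under 0.05. Pyruvate kinase gene pklr, a liver form, had 0, 0, 0.603, and 0.165 CPM with PT-91, against 1.45, 0, 0.239, and 15.9 CPM with A8535, and its log2 fold change of -4.40 was -1.44 without A8535 replicate 4. The glutamate receptor gene gria2b had 4.18, 10.1, 2.19, and 1.403 CPM with PT-91, against 1.08, 1.87, 1.49, and 1.02 CPM with A8535 (1.70, SE 0.80, and 0.91 without PT-91 replicate 2).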
